A study of Homo sapiens with 8 samples.

Results

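The genes described here carry out nucleotide excision repair, base excision repair, mismatch repair and non-homologous end joining, together with MGMT, which repairs DNA by direct reversal. The list names 38 genes, and a gene entered when a probe set named it and no other gene. Of these, 35 were measured among 19775 genes in all, and where several probe sets stood for a gene the one with the highest mean over the 8 arrays was used. NEIL1, PMS2 and NHEJ1 were covered only by probe sets that also name a second gene and have no value here. MDA-MB-231 cells, a human line from a breast cancer of the basal-like type that lacks the oestrogen receptor, received either a control siRNA, giving 4 siCTRL arrays, or an siRNA directed at HMGA1, giving 4 siHMGA1 arrays, and RNA was taken at 72 h. Both groups were the same parental line without any other treatment named in the labels, and the silencing was transient. The comparison asks how the RNA of these repair genes stood after HMGA1 silencing.

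Each pathway handles another kind of damage. Nucleotide excision repair removes bulky lesions, such as those made by ultraviolet light, by opening the helix and cutting out a stretch of the damaged strand. Base excision repair starts with a glycosylase that removes a single altered base, after which the gap is cut, filled and sealed. Mismatch repair corrects errors left behind the replication fork, and end joining ligates double-strand breaks without a template. HMGA1 is a chromatin protein that binds to AT-rich stretches and bends DNA.

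HMGA1 itself had log2 signals of 12.62, 12.84, 12.69 and 12.85 in the siCTRL arrays and of 10.11, 10.37, 10.29 and 10.57 in the siHMGA1 arrays, so that every silenced array lay below every control (log2 fold change -2.42, adjusted p = 2.46e-08 from limma). On its other, dimmer probe set the arrays also lay apart, with a smaller change of -0.90, and the mean of its probe sets gave -1.66. All log2 values given here are RMA probe set signals, and all fold changes are siHMGA1 over siCTRL. A gene is called lower or higher where limma, with adjustment over all genes, gave an adjusted p under 0.05. Correlations between arrays were 0.995 to 0.998 within groups and 0.989 to 0.992 between them. The 6 basal or mesenchymal markers had means of 11.83 to 14.61 (2 lower and 2 higher). The luminal markers PGR, FOXA1 and CDH1 had group means under 5 in siCTRL and siHMGA1, and ESR1 had means of 6.51 and 6.42. GATA3, another luminal gene, was at 9.81 and 9.76, and ERBB3 was higher by 1.32, the 1 luminal gene of 6 that was called. The mean over the 4 measured leukocyte markers was 6.49 to 6.59 in siCTRL and 6.45 to 6.52 in siHMGA1, with LYZ lower (-0.61) and PTPRC higher (0.50), the latter at 4.67 and 5.17.

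Repair genes moved in both directions. Of the 35 measured, 13 were lower and 10 were higher after HMGA1 silencing, and 12 were not called. Over all genes, 14.7% were called lower and 15.8% higher. The median log2 fold change of the repair genes was -0.15, against 0.01 for all genes, and the median size of the change was 0.37 against 0.12. The siHMGA1 arrays lay wholly below the siCTRL arrays for 14 repair genes and wholly above them for 11, where 15.6% and 17% of all genes did so, and the groups overlapped for 10. The largest fall was that of DDB2 (-1.64) and the largest rise that of XRCC4 (1.10). Bright genes are called more often, and 7064 of all 19775 genes had a mean under 6, against 1 of the 35 repair genes. The median size and the shares without overlap were not matched for brightness. Among the 12711 genes with a mean of at least 6, tested alone, 23.8% were lower and 25.9% higher, and in that fit 16 of 34 repair genes were lower and 10 higher. The share of repair genes called higher thus lay near that of all genes in that fit. The methods ask for an adjusted p below 1e-04 together with a log2 fold change of more than 1.4 in size, and at these thresholds DDB2 was the 1 repair gene called, with 0.491% of all genes called lower.

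**Figure D1:**
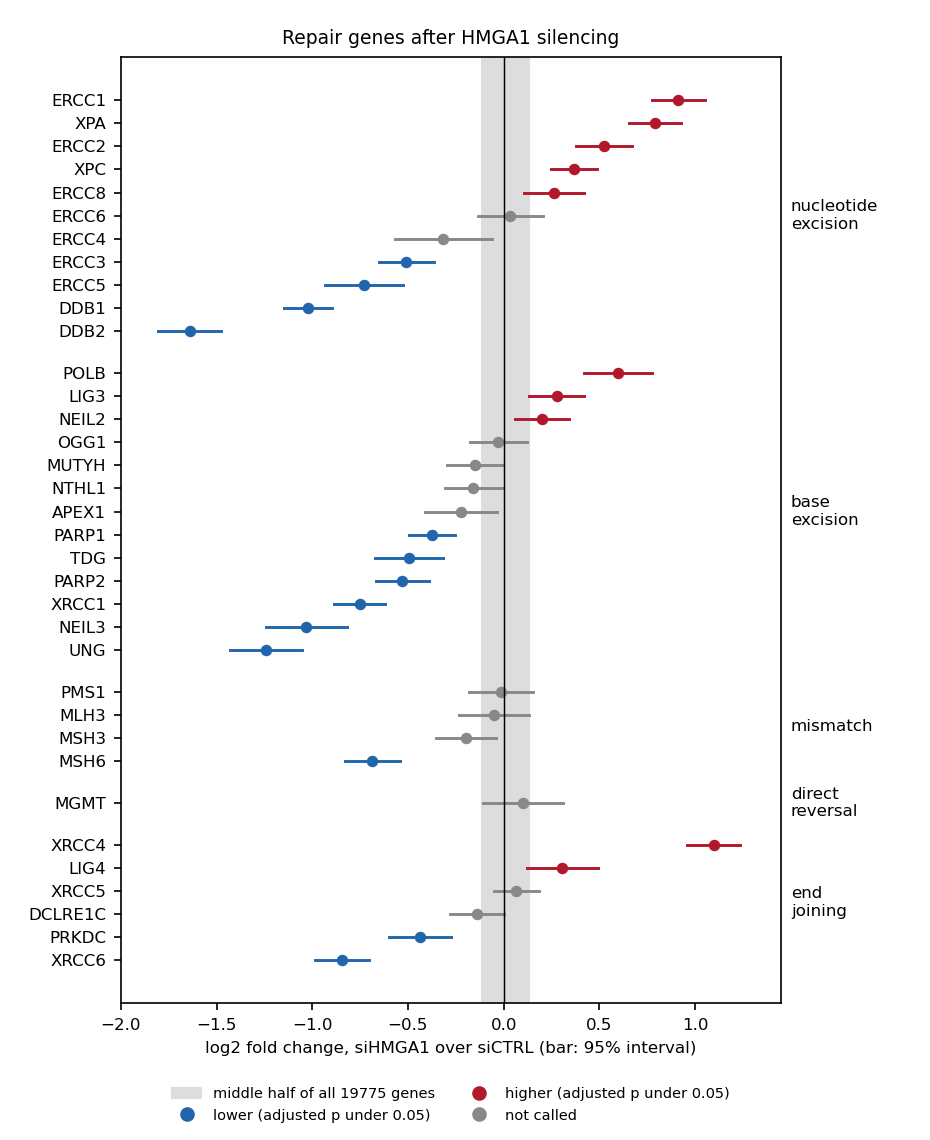
Log2 fold change of the 35 measured repair genes by pathway, with 95% intervals from limma (4 siHMGA1 against 4 siCTRL arrays) and the interquartile range of all 19775 genes in grey. Lower and higher genes stand side by side in nucleotide excision, base excision and end joining, from DDB2 at -1.64 to XRCC4 at 1.10.

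The counts by pathway rest on few genes each. Over all genes 14.7% were lower and 15.8% higher. Among genes with a mean of at least 6, tested alone, 23.8% were lower and 25.9% higher. In nucleotide excision repair 4 of 11 genes were lower and 5 higher, with a median log2 fold change of 0.03. In base excision repair 6 of 13 were lower and 3 higher, and the median was -0.22. Among the 4 mismatch repair genes 1 was lower and 0 higher (median -0.12). Without adjustment, limma gave 2 lower and 0 higher at p under 0.05, and the methods' t-test also called 1 and 0. End joining had 2 lower and 2 higher of 6 (median -0.04). Whether the pathways differed was not tested, since genes of a pathway are not replicates.

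Genes of proliferation moved at the same time. All 14 genes of a list with MKI67, TOP2A, CDK1 and the MCM helicase subunits were lower, with a median log2 fold change of -0.90. The mean log2 level of this list was 11.60 to 11.70 in the siCTRL arrays and 10.70 to 10.91 in the siHMGA1 arrays. In whole cultures, fewer cells in a cell cycle phase and less RNA per cell cannot be told apart, and the part of proliferation in the changes of the repair genes was not tested.

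Promoter windows of RefSeq (GRCh38.p14), each with 250 bases before and 50 after the gene start, were found for 34 of the 38 genes. They were searched on both strands for TTTCCCGC, TTTCGCGC, TTTGCCGC and TTTGGCGC, forms of the site of the E2F factors that drive S phase genes. At least 1 of the 4 stood in a window of 6 of the 34 genes (17.6%) and of 3.99% of all 27305 genes with a window, or 3.31% of all 35116 windows. Of the genes called lower, 3 of 12 with a window held a match (UNG, MSH6 and XRCC6), as did 1 of 8 called higher (XPC), 1 of 11 not called (MSH3) and 1 of 3 not measured (PMS2). In MSH6 and XRCC6 the match lay after the start. The stretches below are written along the gene's own strand, with the match in capitals, and are shown because UNG and XPC hold the same kind of match and moved in opposite directions.
UNG, chr12:109098069-109098156, plus strand: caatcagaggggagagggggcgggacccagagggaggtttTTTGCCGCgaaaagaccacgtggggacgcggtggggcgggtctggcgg
XPC, chr3:14178795-14178851, minus strand: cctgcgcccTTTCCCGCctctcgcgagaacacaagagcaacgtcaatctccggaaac
The match began 63 bases before the start in UNG and 241 bases before it in XPC. For DDB2 and XRCC4, which had the largest fall and the largest rise, no window held any of the 4 motifs, and the 80 bases before the start are shown (for DDB2, of the first of its 2 windows).
DDB2, chr11:47214374-47214453, plus strand: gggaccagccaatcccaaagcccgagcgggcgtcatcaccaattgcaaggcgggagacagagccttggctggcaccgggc
XRCC4, chr5:83077467-83077546, plus strand: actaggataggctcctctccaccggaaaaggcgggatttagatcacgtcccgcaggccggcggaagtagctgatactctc

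Nucleotide excision repair begins with the damage sensors, and there the RNA of DDB2 and DDB1, the UV-damaged DNA-binding complex, was lower. DDB2 is the subunit that recognises the lesion and DDB1 links it to a ubiquitin ligase. DDB2 had log2 signals of 8.35, 8.19, 8.21 and 8.23 in siCTRL and of 6.68, 6.43, 6.57 and 6.73 in siHMGA1. All silenced arrays lay below all controls, and the level was 32.1% of the control (log2 fold change -1.64, 95% interval -1.80 to -1.48, adjusted p = 5.82e-08 from limma). For DDB1 the signals were 11.76, 11.85, 11.74 and 11.85 against 10.70, 10.79, 10.77 and 10.84, again without overlap. DDB1 was at 49.2% of the control (-1.02, 95% interval -1.15 to -0.89, adjusted p = 2.31e-07 from limma). XPC, the sensor of distorted helices that acts with this complex, was higher instead, at 8.96 to 9.04 in siCTRL and 9.32 to 9.43 in siHMGA1 (0.37, adjusted p = 2.80e-04 from limma).

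The factors that check and open the damaged site were split. XPA, which verifies the lesion and holds the cutting complex together, had signals of 10.02, 9.88, 9.84 and 9.84 in siCTRL and of 10.70, 10.70, 10.70 and 10.63 in siHMGA1. Every silenced array was above every control, with a level of 173% of the control (0.79, 95% interval 0.66 to 0.92, adjusted p = 2.06e-06 from limma). The helicase subunits of TFIIH moved apart. ERCC2 (XPD) had signals of 8.54, 8.62, 8.70 and 8.78 against 9.15, 9.27, 9.13 and 9.18, and rose without overlap to 144% (0.52, 95% interval 0.38 to 0.67, adjusted p = 9.90e-05 from limma). ERCC3 (XPB) had signals of 9.51, 9.36, 9.38 and 9.27 against 8.82, 8.85, 8.90 and 8.92, and fell without overlap to 70.3% (-0.51, 95% interval -0.65 to -0.37, adjusted p = 9.39e-05 from limma).

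The nucleases that cut on either side of the lesion also differed. ERCC5 (XPG), the nuclease downstream of the lesion, had signals of 9.42, 9.10, 9.54 and 9.16 in siCTRL and of 8.61, 8.52, 8.58 and 8.59 in siHMGA1. The control arrays were the more scattered, and no silenced array reached them (-0.73, 95% interval -0.93 to -0.53, adjusted p = 9.24e-05 from limma). ERCC1, the partner of the nuclease ERCC4 (XPF) on the other side, had signals of 10.23, 10.02, 10.13 and 10.11 against 10.97, 11.02, 11.05 and 11.11 on its brightest probe set. That probe set was higher in every silenced array (0.91, 95% interval 0.77 to 1.05, adjusted p = 8.56e-07 from limma). The other ERCC1 probe sets did not follow it: the change was -0.22 (adjusted p = 0.207) on one and -0.50 (adjusted p = 7.14e-04) on the other, both from limma with adjustment over all probe sets. The mean of the 3 was 0.07 (adjusted p = 0.515 from limma), so the direction for ERCC1 depends on the probe set. In the RefSeq gene table ERCC1 overlaps POLR1G, and which transcripts each probe set reads was not tested. ERCC4 was at 7.77 to 8.29 in siCTRL and 7.52 to 7.86 in siHMGA1 and was not called (-0.32, adjusted p = 0.060 from limma). Its adjusted p was 0.0422 after cyclic loess, 0.0396 at a mean of at least 6, 0.036 in the trended and robust fit, and 0.0292 to 0.0382 without siCTRL replicate 2, siCTRL replicate 4 or siHMGA1 replicate 4. Under the remaining alternatives ERCC4 was not called. There the adjusted p ran from 0.0561 with the replicate block in limma to 0.171 with the methods' t-test.

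In the transcription-coupled branch, which answers to stalled RNA polymerase, ERCC8 (CSA) was at 8.89 to 9.20 in siCTRL and 9.26 to 9.32 in siHMGA1 (0.26, adjusted p = 0.0141 from limma). Its 3 other probe sets were not called and the mean of all of them gave 0.03. ERCC6 (CSB) was not called (0.03, 95% interval -0.14 to 0.20), with overlapping arrays, although a dimmer probe set was higher by 0.24.

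**Figure D2:**
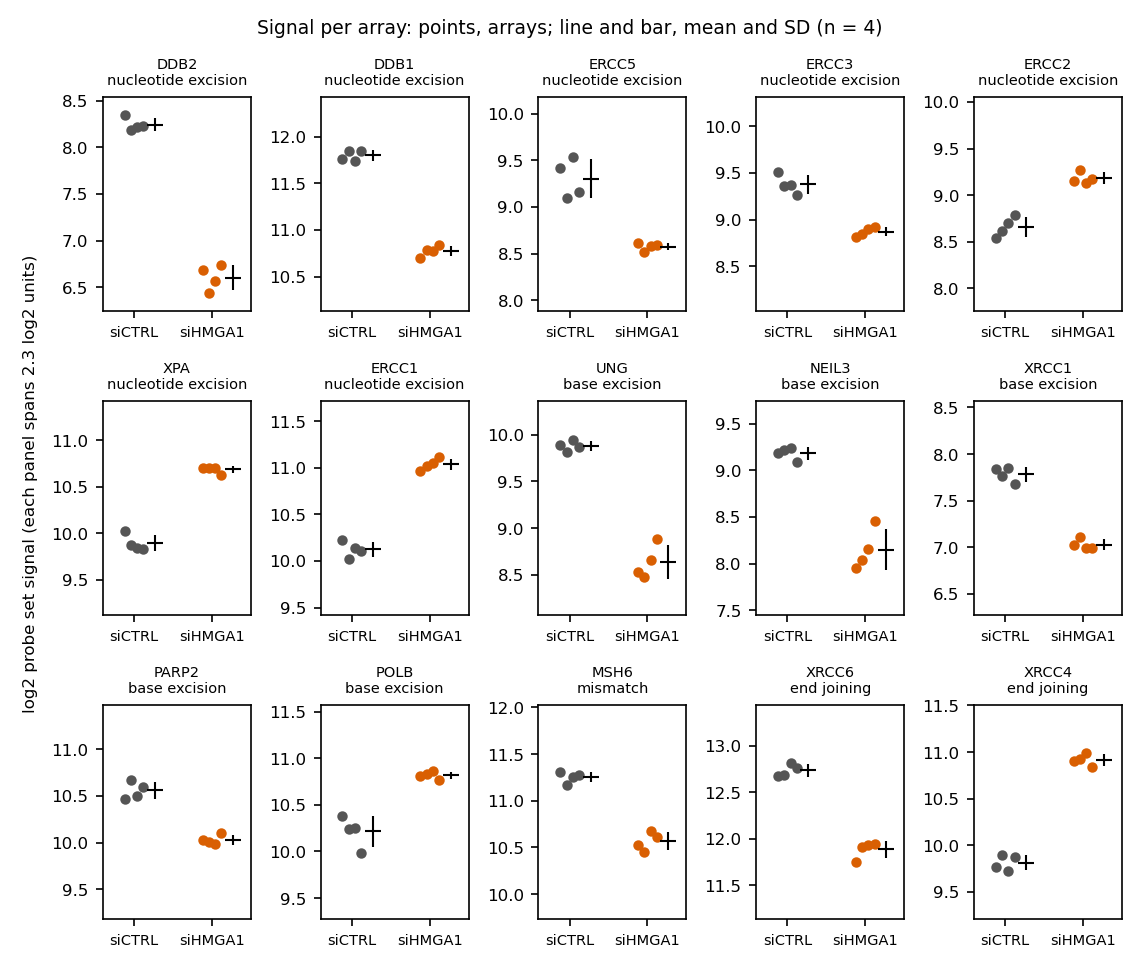
Log2 signal in each of the 4 siCTRL and 4 siHMGA1 arrays for the 15 repair genes called with a log2 fold change of at least 0.5 in size, with the mean and SD beside the points. The axis of each panel has its own offset but spans the same number of log2 units, and in all 15 panels the groups lie apart.

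The glycosylases of base excision repair that changed most were lower. UNG, which removes uracil from DNA, had signals of 9.89, 9.82, 9.95 and 9.87 in siCTRL and of 8.53, 8.48, 8.65 and 8.89 in siHMGA1. The groups did not overlap, and the silenced arrays stood at 42.2% of the control (-1.24, 95% interval -1.43 to -1.06, adjusted p = 8.47e-07 from limma). NEIL3, a glycosylase for oxidised bases known from dividing cells, had signals of 9.19, 9.21, 9.24 and 9.09 against 7.95, 8.04, 8.16 and 8.45. Its silenced arrays were the more scattered and all lay below the controls (-1.03, 95% interval -1.24 to -0.82, adjusted p = 9.39e-06 from limma). TDG, which removes thymine or uracil paired with guanine, was lower as well, at 11.42 to 11.78 against 11.00 to 11.18 (-0.49, adjusted p = 6.05e-04 from limma).

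The other glycosylases changed less. NEIL2, which also takes out oxidised bases, was higher by 0.20 (adjusted p = 0.035 from limma), with 7.36 to 7.50 in siCTRL and 7.50 to 7.70 in siHMGA1, and it lost the call when any of 5 arrays was left out (siCTRL replicate 2 or 3 or siHMGA1 replicate 2, 3 or 4, adjusted p up to 0.102). OGG1, which removes oxidised guanine, was not called on its brightest probe set (-0.03, 95% interval -0.17 to 0.12), while a dimmer one fell by 0.71 (adjusted p = 2.06e-04 from limma) and the mean of all its probe sets was called lower (-0.26, adjusted p = 0.0179). MUTYH, which removes adenine opposite oxidised guanine, and NTHL1, which removes oxidised pyrimidines, had log2 fold changes of -0.15 and -0.16 and were not called, except MUTYH without siCTRL replicate 1 (adjusted p = 0.0436). The 7 measured glycosylases thus ran from UNG at -1.24 to NEIL2 at 0.20.

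After the glycosylase, the enzymes that cut, fill and seal the gap did not move together. APEX1, the endonuclease for abasic sites, was at 12.13 to 12.49 in siCTRL and 12.01 to 12.25 in siHMGA1 and was not called (-0.22, adjusted p = 0.0693 from limma). It was called lower after cyclic loess (adjusted p = 0.0371), at a mean of at least 6 (0.0422), in the trended and robust fit (0.0214), with array weights (0.0205) and without siCTRL replicate 1 (0.0106). POLB, the polymerase that fills the gap, had signals of 10.38, 10.24, 10.26 and 9.98 in siCTRL and of 10.81, 10.83, 10.86 and 10.77 in siHMGA1. It rose without overlap to 151% (0.60, 95% interval 0.42 to 0.77, adjusted p = 1.41e-04 from limma), and its other probe sets, both dim, were higher too (0.98 and 0.39). XRCC1, the scaffold that holds polymerase and ligase, went the other way with signals of 7.83, 7.77, 7.85 and 7.68 against 7.03, 7.11, 6.99 and 6.99. No silenced array overlapped the controls (-0.75, 95% interval -0.89 to -0.62, adjusted p = 3.03e-06 from limma). LIG3, the ligase bound to XRCC1, was higher by 0.28 (adjusted p = 0.00638 from limma) at 8.67 to 8.86 against 8.99 to 9.12. Of its 5 other probe sets 1 was higher (0.41) and 4 were not called, and the mean of all 6 gave 0.12.

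The poly(ADP-ribose) polymerases, which sense strand breaks, were both lower. PARP2 had signals of 10.47, 10.67, 10.50 and 10.60 in siCTRL and of 10.03, 10.01, 9.98 and 10.11 in siHMGA1. The groups lay apart (-0.53, 95% interval -0.67 to -0.39, adjusted p = 5.96e-05 from limma), and the other 2 probe sets of PARP2 were lower as well (-0.56 and -0.68). PARP1 was at 9.94 to 10.03 in siCTRL and 9.54 to 9.65 in siHMGA1 (-0.37, adjusted p = 2.70e-04 from limma).

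In mismatch repair MSH6 was the 1 gene called. MSH6 and MSH3 are alternative subunits of the mismatch sensors, MSH6 for base mismatches and small loops and MSH3 for larger loops. MSH6 had signals of 11.30, 11.17, 11.26 and 11.28 in siCTRL and of 10.53, 10.45, 10.68 and 10.61 in siHMGA1. All silenced arrays were below all controls, at 62.2% of the control level (-0.69, 95% interval -0.83 to -0.54, adjusted p = 9.74e-06 from limma). A second MSH6 probe set fell by 0.61 on the log2 scale, and the other 2 were dim and not called. MSH3 was at 8.52 to 8.81 against 8.46 to 8.51 and did not pass the threshold (-0.20, adjusted p = 0.0563 from limma). It was called lower when genes with a mean under 6 were left out (adjusted p = 0.0307), after cyclic loess (0.026), in a trended and robust fit (0.0462) and without siCTRL replicate 2 (0.0145). PMS1 and MLH3, partners in the MutL complexes that act after recognition, had log2 fold changes of -0.01 and -0.05 with overlapping arrays, although 1 of the 4 other, dimmer probe sets of PMS1 fell by 0.27 (adjusted p = 0.0353 from limma).

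MGMT, which takes alkyl groups off guanine in a single step, had a mean of 5.31 and was the only measured repair gene with a mean under 6. Its values of 5.15 to 5.44 in siCTRL and 5.25 to 5.61 in siHMGA1 overlapped (0.10, adjusted p = 0.502 from limma), and at such a low signal a change may be compressed.

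In end joining, genes of break recognition and of the ligase complex were called in both directions. The Ku subunits XRCC6 (Ku70) and XRCC5 (Ku80) form the ring that binds a broken end. XRCC6 had signals of 12.67, 12.69, 12.82 and 12.76 in siCTRL and of 11.75, 11.92, 11.94 and 11.95 in siHMGA1. It was lower in every silenced array, at 55.7% of the control (-0.84, 95% interval -0.99 to -0.70, adjusted p = 1.87e-06 from limma). XRCC5 was at 12.54 to 12.61 against 12.62 to 12.70, a difference of 0.07 that was not called (95% interval -0.05 to 0.18, adjusted p = 0.412 from limma). PRKDC, the kinase recruited by Ku, was lower on its brightest probe set (11.17 to 11.26 against 10.62 to 10.96, -0.44, adjusted p = 6.74e-04 from limma), and a second probe set was also lower (-0.32). DCLRE1C (Artemis), the nuclease that trims ends, was not called (-0.14, adjusted p = 0.127 from limma), while 1 of its 4 other probe sets was higher by 0.28.

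The RNA of XRCC4 and LIG4, genes of the ligase complex, was higher. XRCC4, which stabilises the ligase, had signals of 9.77, 9.89, 9.72 and 9.87 in siCTRL and of 10.90, 10.92, 10.99 and 10.84 in siHMGA1. Every silenced array was above every control, at 214% of the control level (1.10, 95% interval 0.96 to 1.23, adjusted p = 2.40e-07 from limma). The 3 other XRCC4 probe sets gave 1.04, 0.92 and 0.90 and were all called higher. LIG4, the ligase itself, was at 9.08 to 9.34 in siCTRL and 9.39 to 9.65 in siHMGA1 (0.31, adjusted p = 0.0162 from limma), and its second probe set was higher by 0.64. The call of LIG4 was lost without siHMGA1 replicate 3 and with the methods' t-test (adjusted p up to 0.0582).

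Because 20 of the measured repair genes had more than 1 probe set, 79 probe sets in all could be read, of which 21 were lower and 19 higher (limma, adjusted over all probe sets that name 1 gene). The share of all such probe sets called in this fit is not given here, so these counts cannot be set against a background. The called genes had 26 probe sets besides those used. Of these, 13 were called in the same direction, 1 in the opposite direction (ERCC1) and 12 were not called, 7 of them with a mean under 6. Every probe set was called in the same direction for XRCC4 (all 4 higher), POLB (all 3 higher), ERCC2 and LIG4 (both higher), PARP2 (all 3 lower) and TDG (both lower).

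**Figure D3:**
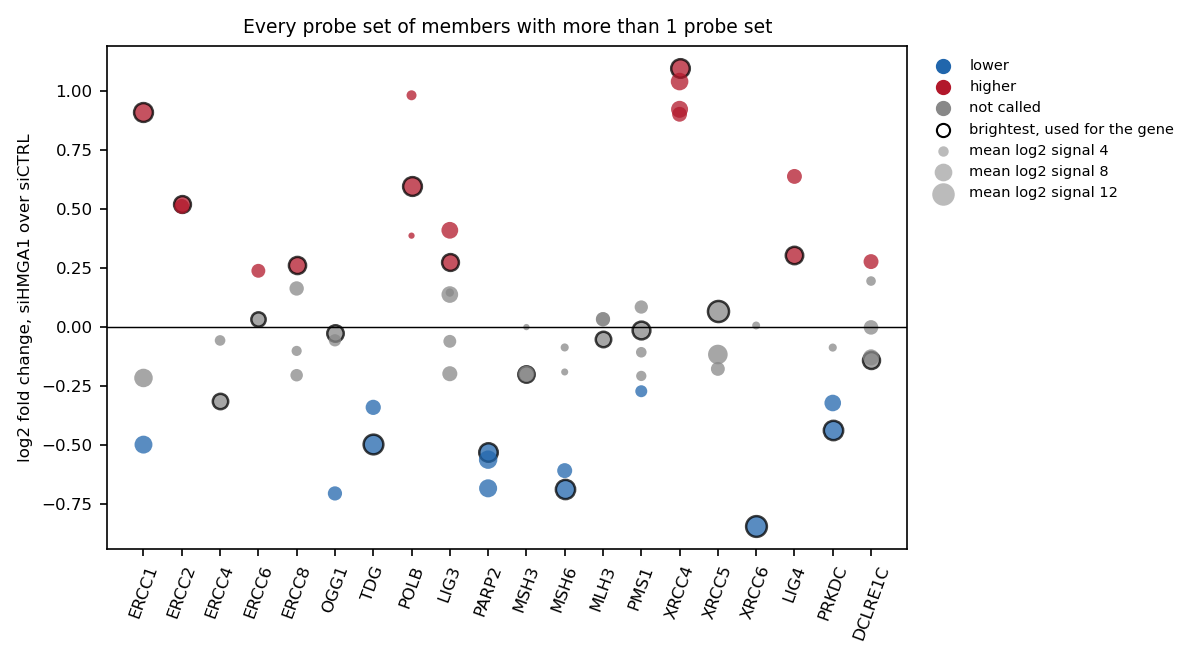
Log2 fold change (siHMGA1 over siCTRL) of every probe set of the 20 repair genes with more than 1, with point area rising with mean signal and the probe set used for the gene outlined. The 4 points of XRCC4 lie together between 0.90 and 1.10, while those of ERCC1 spread from -0.50 to 0.91.

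Subunits of the same complex were then set side by side in 9 pairs, written down after the members' values were known, so that their differences are given with 95% intervals as a description and without a test. The widest gaps were those of ERCC1 over ERCC4 (1.23, interval 0.98 to 1.48, with the probe set limit on ERCC1 above), ERCC2 over ERCC3 (1.03, 0.76 to 1.30) and LIG3 over XRCC1 (1.03, 0.89 to 1.17). In these 3 pairs the first gene was higher and the second lower or not called. The rise of LIG3 also depends on the probe set, since the mean of all its probe sets gave 0.12 and was not called. XRCC6 changed by 0.91 less than XRCC5 (-0.91, interval -1.07 to -0.75). XRCC4 and LIG4 both rose and DDB2 and DDB1 both fell, with gaps of 0.79 (0.48 to 1.10) and -0.62 (-0.84 to -0.40). MSH3 changed by 0.49 more than MSH6 (0.31 to 0.67) and ERCC6 by -0.23 relative to ERCC8 (-0.40 to -0.06). The order of ERCC6 and ERCC8 depends on the probe set. With the mean of all probe sets ERCC6 changed by 0.14 and ERCC8 by 0.03, neither called. PARP2 and PARP1 had the narrowest gap of the 9 pairs (-0.16, interval -0.33 to 0.02).

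**Figure D4:**
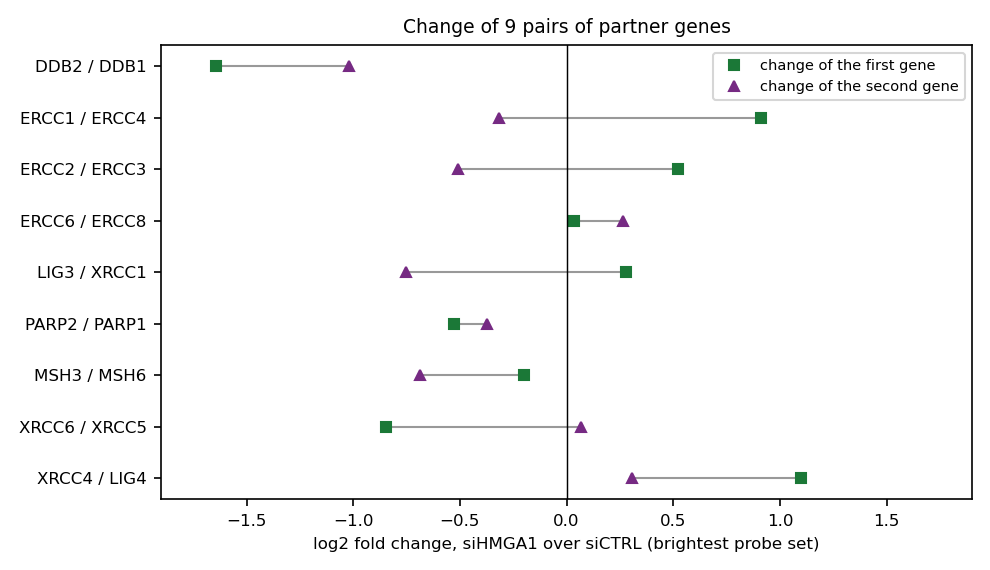
Log2 fold change (siHMGA1 over siCTRL) of the first gene (squares) and second gene (triangles) of 9 pairs that work in the same complex or step, each on its brightest probe set. The symbols lie on opposite sides of 0 for ERCC1 and ERCC4, ERCC2 and ERCC3, LIG3 and XRCC1, and XRCC6 and XRCC5, and the gap is narrowest for PARP2 and PARP1 (-0.16).

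Other genes of the same pathways were read from lists of 55 genes, of which 51 were measured, 21 lower (41.2%) and 7 higher (13.7%). Over all genes these shares were 14.7% and 15.8%, so the share higher lay near that of all genes. In the separate fit of genes with a mean of at least 6 they were 23.8% and 25.9%. In nucleotide excision repair 7 of 17 were lower and 4 higher. The TFIIH subunit GTF2H3 (-0.63) and the kinase module genes MNAT1 (-0.48) and CCNH (-0.35) were lower, whereas the kinase CDK7 (0.50), the small TFIIH subunit GTF2H5 (0.50) and RBX1 (0.29), a part of the DDB1 ligase, were higher. Subunits of TFIIH other than ERCC2 and ERCC3 thus also moved in both directions. In base excision repair 3 of 10 were lower and 0 higher, with 2 higher at an unadjusted p under 0.05 from limma and 0 by the methods' t-test. The lower genes were LIG1 (-0.91), the replicative ligase, TDP1 (-0.84), which clears blocked ends, and the flap nuclease FEN1 (-0.80).

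Among the further mismatch repair genes, which include the replication proteins that resynthesise the strand, 7 of 12 were lower and 2 higher. The exonuclease EXO1 (-1.56), the clamp loader subunit RFC3 (-0.92) and the polymerase subunit POLD3 (-0.85) had the largest falls, and POLD4 (0.32) and RFC1 (0.29) were higher, though 0 were with the methods' t-test. Around end joining, 4 of 10 were lower and 1 higher. TP53BP1 (-0.86) and RIF1 (-0.71), which favour end joining over resection, and POLQ (-0.63), the polymerase of the alternative pathway, were lower, and TDP2 (0.33), which frees ends from topoisomerase, was higher. Neither of the 2 other genes of direct reversal was called by limma or the methods' t-test, and 1 was higher at an unadjusted p under 0.05.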

How the data were processed

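The deposited values were log2 probe set signals of 8 hgu133plus2 arrays from Affymetrix. The authors computed intensities in its Expression Console and normalized them by RMA (background correction, quantile normalization and summarisation). RMA and affy are named in the submitters' notes, with no version. This normalization removes differences in total signal between arrays and compresses low signals, and scanner intensities were not used here. The number of arrays limits the precision. The labels give 4 biological replicates per group and the methods 4 in one section and 3 in another. The sample titles number the arrays by experiment in each group, but nothing further describes how the cultures were kept apart. The p-values thus reflect only how these arrays spread, which may be technical.

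Gene names came from the platform annotation. The 54675 probe sets comprised 62 controls, 41091 that name 1 gene, 1801 that name several (not used) and 11721 unnamed here. Gene identifiers were compared with the RefSeq table of GRCh38.p14 (0 symbols updated), which also gave the promoter windows and their coordinates. The brightest probe set by mean stood for a gene.

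limma (version 3.58.1 in R 4.3.3) compared siHMGA1 with siCTRL over 19775 genes with Benjamini-Hochberg adjustment, and probe sets were adjusted over all that name 1 gene. Steps were tested on simulated data. The members and all lists (other pathway genes, proliferation, housekeeping, basal or mesenchymal, luminal and leukocyte markers) were chosen with earlier results of these data known. Every member is accounted for, and array values are printed where the adjusted p was under 0.05 and the log2 fold change at least 0.5 in size. Of other pathway genes, up to 3 lower and 3 higher per list with the largest change were named, besides the glycosylases SMUG1, MBD4 and MPG. Alternatives were the replicate block, the mean of all probe sets, no _s_at, _x_at or _a_at probe sets, cyclic loess, housekeeping centring, a mean of at least 6, a trended and robust fit, array weights, the two-tailed Student's t test of the methods, their thresholds, and leaving out each array.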

Additional observations from a re-analysis of the deposited data

Results flagged for a closer look

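In each group of 4 arrays, the highest and lowest values of every measured repair gene were compared with the rest by Dixon's gap, divided by the range. Of 70 such groups, 3 passed the 95% critical value, where about 3.5 would by chance. XPA was at 10.63 in siHMGA1 replicate 4 and at 10.70 in the other 3 arrays, and all 4 remained above the controls. ERCC6 was at 6.90 in siCTRL replicate 4 against 7.17 to 7.21 in the rest, a gene that was not called. XRCC6 was at 11.75 in siHMGA1 replicate 1 against 11.92 to 11.95, with all 4 below the controls.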

How the results depend on the processing

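Of the 23 repair genes called, 18 kept their direction and call under every alternative that could be run for them at an adjusted p under 0.05, and 1 (DDB2) passed the stricter thresholds of the methods. The others were ERCC1, ERCC8 and LIG3 (0.07, 0.03 and 0.12 with the mean of all probe sets, none called), LIG4 and NEIL2. Members lower and higher were 13 and 10 in the main analysis and within 1.5 times of that under the other alternatives at this limit, but their median was -0.0002003 without the _s_at, _x_at and _a_at probe sets and -0.07212 with housekeeping centring. That centring, on 10 housekeeping genes of which 2 were lower and 2 higher (median -0.02), moved the median of all genes to 0.09 and gave 2208 lower and 4917 higher genes, against 2904 and 3124. Cyclic loess gave 3284 and 2823. The thresholds of the methods left 97 lower and 27 higher genes, of which 1 and 0 were members, since both limits are stricter by construction.

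Within pathways, nucleotide excision had 3 higher with the mean of all probe sets, base excision 3 lower without the _s_at, _x_at and _a_at probe sets, where 8 of its genes were measured, and end joining 1 higher with the methods' t-test. Mismatch repair had 2 lower after cyclic loess, at a mean of at least 6 and in the trended and robust fit. With 1 array left out, mismatch repair had 1 to 2 lower (2 without siCTRL replicate 2) and end joining 1 to 2 higher (1 without siHMGA1 replicate 3). The cause of these differences was not tested.

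Genes near 0 changed sign and had no settled direction. These were OGG1 (0.05316 with housekeeping centring), MLH3 (0.005058 with the mean of probe sets, 0.02912 with housekeeping centring), PMS1 (0.08488 without the _s_at, _x_at and _a_at probe sets, 0.067 with housekeeping centring, 0.03341 with array weights), XRCC5 (-0.07585 with the mean, -0.1776 without those probe sets) and DCLRE1C (0.04013 and 0.2776, the latter with an adjusted p of 0.0211 from limma). Leaving out 1 array gave -0.03914 to 0.06363 for ERCC6, -0.05978 to 0.01639 for OGG1, -0.1033 to 0.01149 for MLH3 and -0.07306 to 0.04165 for PMS1. With dim probe sets averaged in, XRCC6 and MSH6 fell by 0.42 and by 0.39.

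The sample titles number the arrays by experiment in each group, and whether same-numbered arrays were matched is not stated. Deviations of same-numbered arrays correlated at 0.07, 0.27, 0.11 and -0.12, and 2 of 8 arrays correlated best with their own number. So few arrays cannot show whether the design was paired. With a replicate block, 14 members were lower (APEX1 in addition, adjusted p = 0.0328 from limma) and 10 higher and 2930 and 3094 of all genes.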
